A study of Mus musculus with 4 samples.

Results

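Induced pluripotent stem (iPS) cells of 2 lines, 178B5 and 492B4, were compared with the mouse embryonic fibroblasts (MEF) of the same series, and the embryonic stem (ES) line v6.5 was left out of the contrast. The contrast used 3 of the 4 arrays of the series, 1 for MEF, 1 for iPS 178B5 and 1 for iPS 492B4, and 19938 genes named by 28853 probe sets of which 21789 carried a single gene symbol. Per the labels, MEF and both iPS lines had a mixed DBA/2, C57BL/6 and 129S4 background, whereas ES v6.5 came from F1 animals of 129 and C57BL/6. MEF were grown in medium with serum. The pluripotent lines were grown in ES cell medium on feeder layers of SNL cells, a fibroblast line stopped from dividing with mitomycin C. Each iPS line is a single line with 1 array, the factors used for reprogramming are not stated in the labels, and whether feeders were removed before RNA was taken is not stated either. The part of feeder RNA in the iPS and ES values was not tested.

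Reprogramming turns a differentiated cell back into a cell that can form every tissue of the body. Fibroblasts are mesenchymal cells that build collagen-rich matrix, pull on it through actin stress fibres and carry a Hox code that records where in the body they came from. Pluripotent cells grow as tight epithelial colonies, divide fast with short gap phases, and are held in their state by a network of transcription factors around Pou5f1, Sox2 and Nanog.

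Every value is a difference between arrays, because each probe set of the deposited table has a median of 0 across the 4 arrays. The log base is not stated, and the scale was taken as log2. A gene was called higher or lower when the mean of the 2 lines differed from MEF by at least 1 log2 with an adjusted p under 0.05 in limma's moderated test. The spread in that test came from the 2 iPS lines, and the single MEF array was taken to have the same spread, so p-values measure only the spread between these lines. Culture medium and feeders differed with cell type and cannot be told apart from it. In these bulk samples, fewer cells of a type and less RNA per cell cannot be told apart. Of the 19938 genes, 4216 were called (21.1%), 1981 higher in iPS (9.94%) and 2235 lower (11.2%). Arrays centred on 12 reference genes gave 1616 rises and 2693 falls, and equal array medians gave 2265 rises and 2022 falls, so the balance of rises against falls depended on the centring. These settings moved the median difference of all genes by -0.155 and 0.088 log2, from -0.122 log2 as deposited.

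The 2 lines lay closer to each other than to MEF. Their root mean square difference was 0.276 log2, against 1.05 log2 between 178B5 and MEF and 1.12 log2 between 492B4 and MEF. By value alone, 3771 genes (18.9%) lay at least 1 log2 from MEF in both lines, 1758 of them above MEF and 2013 below. At 3 log2 or more in both lines there were 152 genes above and 305 below, and at 5 log2 or more 27 above and 32 below. Exactly 1 gene was at least 1 log2 above MEF in one line and at least 1 log2 below it in the other line. Among the 4216 called genes the lines differed by 0.5 log2 or more in 504. Line 492B4 lay further from MEF than 178B5 in 66.6% of the genes called higher and 68.7% of those called lower, beside 60.1% of all genes.

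**Figure D1:**
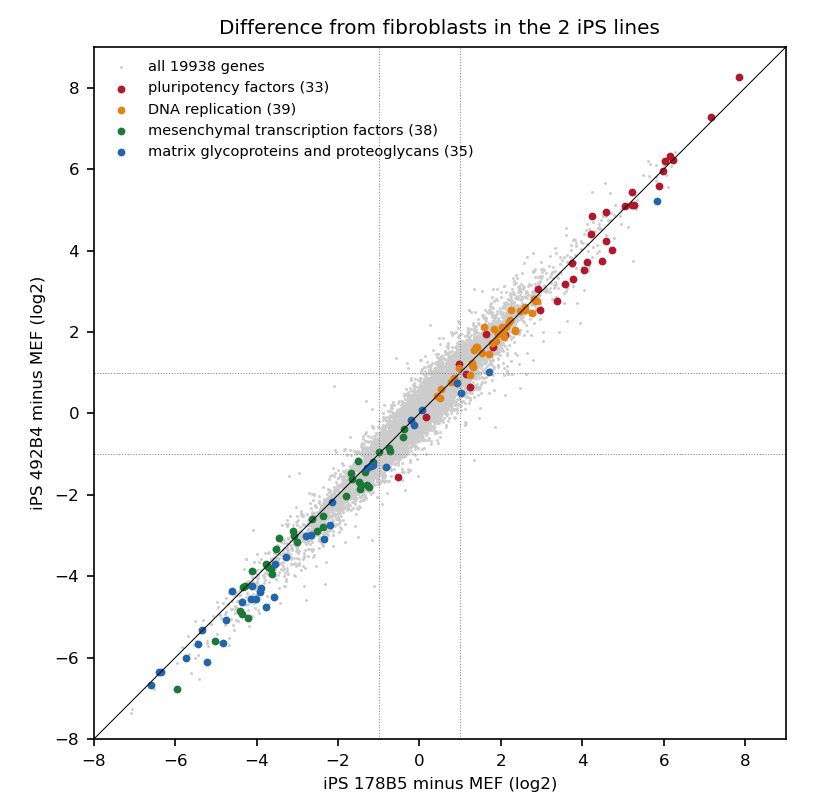
Difference from MEF in iPS 178B5 (horizontal axis, log2) and in iPS 492B4 (vertical axis, log2) for 19938 genes in grey, with members of 4 gene lists in colour, the line of equality and dotted lines at 1 log2. The 33 pluripotency factors and 39 DNA replication genes lie mostly at the upper right, the 38 mesenchymal transcription factors and most of the 35 matrix glycoproteins at the lower left, and points stay close to the line of equality.

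The pluripotency network was higher in both lines. Of 33 measured pluripotency factors, 30 were higher and 0 lower (background 9.94% and 11.2%), with a median of 4.22 log2 in 178B5 and 3.74 log2 in 492B4 beside -0.12 log2 over all genes for the mean of the lines. Pou5f1, the central transcription factor of the pluripotent state, read -6.25 in MEF, -0.09 in 178B5, 0.09 in 492B4 and 0.15 in ES on the deposited scale. Its rise was 6.25 ± 0.16 log2 (SE, 2 lines against 1 MEF array, adjusted p = 0.00187). Nanog read -5.96 in MEF and within 0.10 log2 of 0 on the other arrays, a rise of 5.97 log2 in 178B5 and 5.96 log2 in 492B4. Sox2, the partner of Pou5f1 on DNA, rose by 6.22 and 6.23 log2 in the same order. MEF stood far below the pluripotent arrays for each of these, and the pluripotent arrays lay together.

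The largest rise of all genes was that of Dppa5a, an RNA-binding protein of early embryos, which read -7.96 in MEF, -0.12 in 178B5 and 0.30 in 492B4, a difference of 8.05 ± 0.23 log2. Tdgf1, the co-receptor of the Nodal pathway, followed at 7.22 ± 0.15 log2. Other rises above 6 log2 were those of Bex1 at 6.34 log2, Apela, which encodes a secreted peptide ligand of the apelin receptor, at 6.13 log2, the chromatin-bound factor gene Utf1 at 6.11 log2 and Zfp980 at 6.05 log2. Zfp980 is a zinc finger gene with close copies whose signal its probes may share. The 3 pluripotency factors not called were Foxd3 (1.23 and 0.65 log2 in 178B5 and 492B4, adjusted p = 0.0767), Klf4 (0.16 and -0.08 log2, adjusted p = 0.881) and Myc (-0.52 and -1.57 log2, adjusted p = 0.171). Klf4 and Myc are factors often used to make iPS cells, and their mRNA in MEF was near that in the lines for Klf4, while the lines disagreed for Myc. Of 12 genes taken as markers of pluripotent identity, 12 were higher, among them Alpl (alkaline phosphatase) at 3.77 and 4.25 log2 and Fut9, which makes the SSEA-1 surface sugar, at 2.30 and 2.27 log2.

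**Figure D2:**
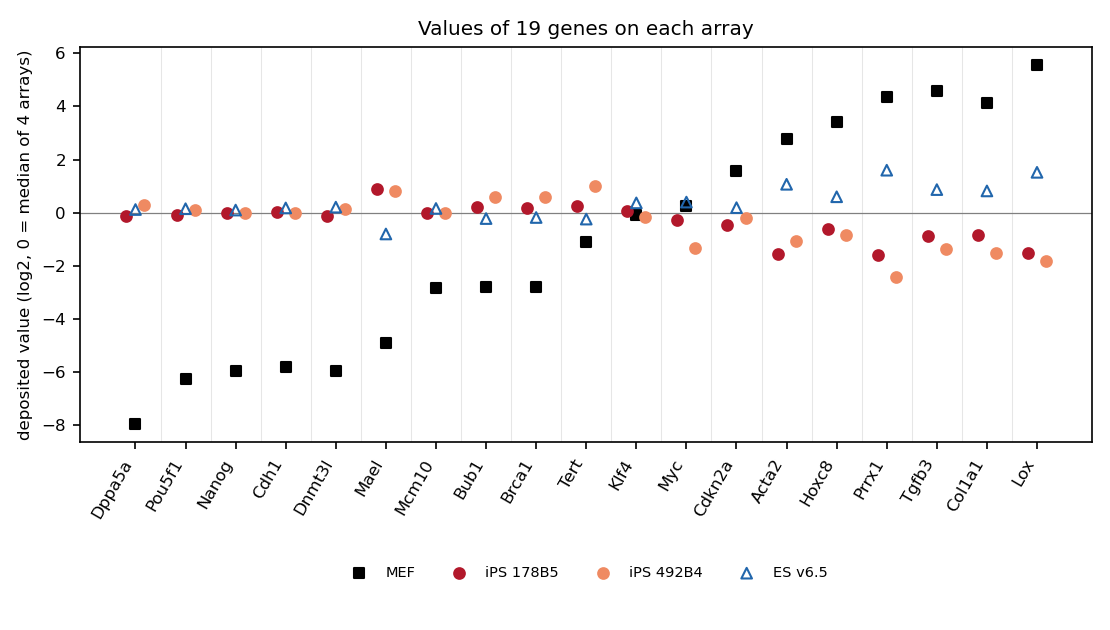
Deposited value (log2, 0 is the median of the 4 arrays) of 19 genes on the MEF, iPS 178B5, iPS 492B4 and ES arrays, 1 point an array. MEF lies far below the other arrays for genes such as Dppa5a and Nanog and far above them for Prrx1 and Lox, and ES lies between MEF and the iPS lines for Acta2, Prrx1, Tgfb3, Col1a1 and Lox.

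Ligands and receptors that feed this network split in direction. Of 28 signalling genes 12 were higher and 7 lower. Fgf4, the growth factor that pluripotent cells secrete, rose by 4.52 log2 in 178B5 and 4.86 log2 in 492B4, and the receptor kinase Kit by 4.16 and 3.61 log2. Nodal rose by 3.11 and 3.07 log2, and its inhibitors Lefty2 (4.05 and 3.02 log2) and Lefty1 (3.86 and 2.72 log2) rose with it. Among the falls, Id3, an inhibitor of helix-loop-helix factors induced by BMP, dropped by 2.90 and 3.84 log2 in the same order and Id1 by 1.37 and 2.13 log2. The shared cytokine receptor subunit Il6st was at -1.76 and -1.84 log2 and Jak1, the kinase bound to it, at -1.73 and -1.41 log2, both called lower. Lifr, the other subunit of the LIF receptor, rose by 1.21 log2 (0.99 log2 in 492B4, adjusted p = 0.0265).

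Genes that copy DNA rose almost as a block. In the DNA replication list 33 of 39 members were higher and 0 lower, all 39 lay above 0, and the median was 1.89 log2 in 178B5 and 1.95 log2 in 492B4. Mcm10, which helps to start the replicative helicase, read -2.82 in MEF and 0.00 in both lines, a rise of 2.82 ± 0.14 log2 (adjusted p = 0.00215). Orc1 of the origin recognition complex rose by 2.82 ± 0.15 log2, the licensing factor Cdt1 by 2.81 log2, Mcm3 of the helicase by 2.62 log2, and the polymerase gene Pole by 2.50 log2. Members under the threshold included Pcna at 0.93 and 0.74 log2 and the GINS subunit genes Gins2, Gins3 and Gins4 between 0.37 and 0.61 log2 in the lines. DNA repair genes went the same way, with 26 of 28 higher, 0 lower and a median of 1.97 log2. The mismatch repair gene Msh6 rose by 3.28 and 3.33 log2, Brca1 by 2.97 and 3.37 log2, the helicase gene Blm by 2.79 and 3.51 log2 and Fanci of the crosslink repair pathway by 3.14 and 3.0 log2.

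The promoters of the replication genes are shown because these members moved together. In the 250 bases before each start site, from RefSeq on build GRCm38.p6, an E2F site (TTTGGCGC, TTTCGCGC or TTTCCCGC, on either strand) was found in 8 of the 30 replication genes with a promoter entry (26.7%). It was found in 2.51% of the 15614 genes compared that had an entry, in 4.65% of the 1569 called higher, and in 2.15% of the 1720 called lower. Other lists held the site too, in 5 of 22 DNA repair genes, 3 of 15 DNA methylation genes and 3 of 19 splicing regulators. It lay in 2 of 19 cell cycle inhibitors and p53 targets, 1 of 24 mitotic genes and 0 of 24 collagen genes. Of the 8 replication genes, 6 were called higher and Gins3 and Rfc3 were not called. The 4 with the largest rise are Orc1 (chr4:108579334-108579453, plus strand), Mcm6 (chr1:128359716-128359835, minus strand), Mcm7 (chr5:138171949-138172068, minus strand) and Cdc6 (chr11:98907993-98908112, plus strand). Each is printed over 120 bases, 5′ to 3′ on the gene's strand, with the E2F matches in capitals.
Orc1: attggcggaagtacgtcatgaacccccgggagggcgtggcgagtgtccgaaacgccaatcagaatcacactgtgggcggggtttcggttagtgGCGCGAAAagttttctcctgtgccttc
Mcm6: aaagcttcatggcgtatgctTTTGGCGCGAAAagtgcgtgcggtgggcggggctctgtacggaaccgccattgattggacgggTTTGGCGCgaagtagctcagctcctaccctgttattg
Mcm7: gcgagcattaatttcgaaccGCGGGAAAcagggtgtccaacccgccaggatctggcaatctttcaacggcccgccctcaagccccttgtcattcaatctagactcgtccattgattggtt
Cdc6: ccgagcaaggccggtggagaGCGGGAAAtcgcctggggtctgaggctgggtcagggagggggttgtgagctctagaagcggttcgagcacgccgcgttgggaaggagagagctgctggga
Orc1 holds its match with the first base 27 bases before the start site, Mcm6 holds 3 at 110, 106 and 47 bases, of which the first pair overlap, Mcm7 holds 1 at 165 bases and Cdc6 holds 1 at 138 bases. Mcm6 rose by 2.18 ± 0.20 log2, Mcm7 by 2.12 ± 0.14 log2 and Cdc6 by 1.99 ± 0.14 log2. A match describes the letters of the window and is not evidence that a factor binds there.

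Mitotic genes rose as broadly, with 27 of 29 higher and 0 lower. Of the 29, 26 stood further from MEF in 492B4 than in 178B5, beside 60.1% of all genes and 66.6% of those called higher. Bub1, a kinase of the spindle checkpoint, read -2.80 in MEF, 0.22 in 178B5 and 0.58 in 492B4, a rise of 3.20 ± 0.21 log2. Its partner Bub1b rose by 2.69 log2, Espl1, the separase that cuts cohesin, by 2.65 log2 and the kinetochore gene Cenpf by 2.41 log2. The kinase gene Cdk1 stood at 0.85 and 0.98 log2 and Anln at 0.58 and 1.1 log2, below the threshold. A CCAAT box (CCAAT on either strand) lay in the 250 bases before the start of 18 of 24 mitotic genes (75%), beside 38.8% of all genes, 45.3% of those called higher and 35.2% of those called lower. The list of cholesterol synthesis genes held it in 14 of 14 and had 1 member higher and 1 lower. Lists that fell varied, with the box in 16 of 24 mesenchymal transcription factors, 13 of 21 Hox genes and 6 of 24 integrin and focal adhesion genes. A part of the box in these changes was not tested. Bub1 (chr2:127831860-127831979, minus strand), Bub1b (chr2:118598078-118598197, plus strand) and Espl1 (chr15:102296173-102296292, plus strand) had the largest rises among the 18 and are shown with the box in capitals.
Bub1: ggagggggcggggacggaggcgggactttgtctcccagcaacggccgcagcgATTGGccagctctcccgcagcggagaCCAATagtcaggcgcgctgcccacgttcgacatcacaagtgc
Bub1b: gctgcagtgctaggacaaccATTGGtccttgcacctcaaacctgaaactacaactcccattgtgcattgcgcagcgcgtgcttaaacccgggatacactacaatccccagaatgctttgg
Espl1: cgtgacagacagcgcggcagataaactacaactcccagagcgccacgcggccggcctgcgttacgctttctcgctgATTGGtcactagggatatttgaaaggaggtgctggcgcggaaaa

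Of 24 genes listed as cell cycle inhibitors and p53 targets, D cyclins included, 7 were lower, 0 higher and 17 not called, with a median of -0.22 log2. Cdkn2b, an inhibitor of the G1 kinases, read 2.47 in MEF, -0.80 in 178B5 and -0.25 in 492B4, and fell by 3.0 ± 0.28 log2. Its neighbour Cdkn2a, which encodes p16 and p19ARF, fell by 1.89 ± 0.18 log2, the death receptor gene Fas by 2.32 log2 and the growth arrest gene Gadd45g by 2.78 log2. The 7 also held the inhibitor gene Cdkn2c at -2.02 log2 and the cyclin genes Ccnd1 and Ccnd2, which drive rather than brake division, at -1.88 and -2.80 log2. Cdkn1b (-0.33 and -0.05 log2) and Mdm2 (0.45 and 0.66 log2) were not called.

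Genes that supply growth rose less evenly. Ribosome biogenesis genes had 22 of 29 higher and 0 lower, with a median of 1.28 log2, led by the pseudouridine synthase gene Dkc1 at 2.14 log2 in each line and by Rrp1b at 2.16 and 1.98 log2. In nucleotide synthesis 9 of 24 were higher, among them the purine enzymes Pfas at 2.45 log2 and Ppat at 2.06 log2, and 15 were not called, Tyms and Rrm1 included. In mitochondrial gene expression 9 of 24 were higher, with the mitochondrial DNA packaging factor Tfam at 1.86 log2 and Tfb1m at 1.82 log2. Among threonine, serine and glycine genes Gldc, the decarboxylase of the glycine cleavage system, rose by 4.94 and 5.03 log2 and its partner Amt by 4.01 and 4.19 log2. Of the 17 members 6 were higher, 1 lower and 10 not called, the lower being Mthfd2l of the folate pathway at -1.96 and -2.80 log2. Telomere genes had 8 of 13 higher. Terf1, which coats telomeric DNA, rose by 2.56 log2, and Tert, the catalytic subunit of telomerase, by 1.34 log2 in 178B5 and 2.10 log2 in 492B4 (adjusted p = 0.0315).

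In glycolysis 10 of 24 members were higher and 1 lower. The glucose transporter gene Slc2a3 rose by 4.42 and 4.57 log2 and the aldolase gene Aldoc by 4.24 and 5.45 log2. The lactate exporter gene Slc16a3 rose by 2.14 and 2.32 log2 and Pdk1, which inhibits pyruvate dehydrogenase, by 2.16 and 2.26 log2. The core enzymes Pgk1, Aldoa, Pgam1, Ldha and Tpi1 lay between -0.06 and 0.75 log2 and were not called. Eno3, the muscle enolase, fell by 1.91 and 2.14 log2. Amino acid transporters showed no common direction, with 4 higher, 4 lower and 16 not called. Slc7a7 (3.76 and 3.13 log2) and Slc7a3 (3.36 and 3.18 log2) rose, while the cystine importer gene Slc7a11 and the glycine transporter gene Slc6a9 fell by 2.22 and 2.37 log2. The list's median was 0.13 log2, and -0.03 log2 with reference centring.

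Regulators of DNA methylation mostly rose, while chromatin genes moved in both directions. Of 17 DNA methylation genes 11 were higher and 1 lower. Dnmt3l, the cofactor of the de novo methyltransferases, read -5.97 in MEF, -0.14 in 178B5 and 0.14 in 492B4 and rose by 5.97 ± 0.18 log2. Tet1, which oxidises methylcytosine, rose by 4.45 and 4.54 log2, the remodeller gene Hells by 3.32 and 3.23 log2 and Dnmt3b by 3.41 and 3.07 log2, while the methyl-CpG binder gene Mbd2 fell by 1.42 and 1.41 log2. Among 35 chromatin remodelling and Polycomb genes 14 were higher and 6 lower. The Polycomb genes Cbx7 (3.97 and 4.04 log2), Phc1 (3.29 and 3.48 log2), Jarid2 (2.94 and 3.0 log2) and Mtf2 (2.72 and 2.50 log2) rose. Bmi1, also a Polycomb gene, fell by 1.89 and 2.17 log2. Of the SWI/SNF subunit genes, Smarcd1 rose by 1.45 log2 in each line, Smarcc2 fell by 1.97 and 2.12 log2 and Smarca2 by 1.30 and 1.79 log2, and Smarca4 stood at 0.02 and 0.03 log2. The histone deacetylase genes Hdac7 and Hdac9 fell by 2.08 and 1.56 log2.

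Genes of the germ line that guard against transposons or carry out meiosis had 17 of 32 members higher and 0 lower. Mael, of the piRNA pathway, read -4.91 in MEF, 0.91 in 178B5, 0.80 in 492B4 and -0.80 in ES, and rose by 5.77 ± 0.14 log2. Tdrd12 rose by 4.95 and 4.66 log2, Rnf17 by 3.41 and 3.42 log2, and Syce2 of the synaptonemal complex by 3.24 and 3.42 log2. The lines differed for some members. Sycp3 stood at 1.33 log2 in 178B5 and 3.06 log2 in 492B4, and Tex15 at 2.07 and 0.95 log2, and neither was called. In 21 of the 32 genes (65.6%) ES lay nearer to MEF than both iPS lines did, beside 52.7% of the genes called higher and 52.6% of all genes. With ES included 13 were called higher, and Smc1b, Tdrd5, Dazl, Rec8 and Taf7l were called without ES and not with it.

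Genes of epithelial junctions and polarity rose. Of 35 epithelial genes 24 were higher, 0 lower and 35 above 0. Cdh1, or E-cadherin, read -5.81 in MEF, 0.01 in 178B5 and -0.01 in 492B4, a rise of 5.81 ± 0.14 log2. The claudin genes Cldn6 and Cldn4 of tight junctions rose by 5.73 and 4.54 log2, Krt18 of simple epithelial keratin filaments by 4.06 log2 and Epcam by 4.01 log2. The splicing regulator Esrp1, which sets epithelial exon choice, rose by 3.80 and 4.29 log2, and Mbnl1, which favours exons of differentiated cells, fell by 3.24 and 3.07 log2. Of the 26 splicing regulators as a list 4 were higher and 3 lower, near the share of all genes.

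Mesenchymal transcription factors fell nearly throughout, with 33 of 38 lower, 0 higher and 38 below 0. Prrx1, a homeobox factor of limb and connective tissue, read 4.35 in MEF, -1.60 in 178B5, -2.42 in 492B4 and 1.60 in ES. The gene fell by 6.36 ± 0.38 log2 (adjusted p = 0.00281). Nfix was at -5.02 and -5.60 log2, Tbx15 at -4.40 and -4.86 log2 and Twist2 at -4.35 and -4.92 log2. The repressors of epithelial genes fell too, Snai2 by 4.30 log2, Zeb2 by 3.77 log2, Zeb1 by 2.44 log2 and Snai1 by 1.52 log2. The 5 members not called, Tcf21, Meox1, Alx4, Foxf2 and Tbx2, stood between -1.0 and -0.37 log2 in the lines.

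The Hox code of the fibroblasts was lowered, with calls in each cluster. Of 37 Hox genes 24 were lower and 0 higher, with a median of -1.51 log2 in 178B5 and -1.83 log2 in 492B4. Hoxc8, a gene of the trunk, fell by 4.12 ± 0.17 log2. The distal limb genes Hoxd13, Hoxd10 and Hoxa11 were at -4.01, -3.85 and -3.22 log2. Hoxb1, Hoxb13, Hoxd1 and Hoxc13 lay between -0.17 and 0.59 log2 and were not called. In 31 of the 37, line 492B4 stood further from MEF than 178B5 did, beside 60.1% of all genes.

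Genes of the collagen matrix fell, and the fall of Lox was the largest of all genes. Lox, which crosslinks collagen and elastin, read 5.56 in MEF, -1.52 in 178B5, -1.81 in 492B4 and 1.52 in ES, and fell by 7.23 ± 0.19 log2 (adjusted p = 0.00187). Of 32 collagens and collagen-processing genes 24 were lower and 0 higher. Col12a1 fell by 6.65 log2, and among the fibrillar chains Col1a2 was at -5.20 and -5.72 log2 and Col1a1 at -4.93 and -5.62 log2. The microfibril chain gene Col6a1 was at -4.08 and -4.13 log2. The basement membrane collagens did not follow: Col4a1 stood at 0.37 and -0.18 log2, Col4a2 at -0.19 and -0.77 log2 and Col18a1 at 0.56 and 0.26 log2, and none of these was called (limma adjusted p of 0.809, 0.265 and 0.173). The collagen hydroxylase genes P4ha1 and P4ha2 lay between -0.03 and 0.34 log2 and Plod2 at 0.99 and 0.75 log2, whereas P4ha3 fell by 5.20 log2. On the ES array Col4a1, Col4a2, P4ha1 and P4ha2 were -1.81, -2.05, -1.62 and -2.42 log2 from MEF. These collagens and hydroxylases were picked after their values were seen.

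Matrix glycoproteins and proteoglycans were lower in 28 of 35 and higher in 2, with a median of -3.58 log2 in 178B5 and -4.24 log2 in 492B4. The small proteoglycan genes Aspn and Ogn were at -6.63 and -6.37 log2, Postn (periostin) at -6.36 log2 in each line and Fbln5, needed for elastic fibres, at -5.88 log2. Prg4 (lubricin), which is outside the list, fell by 7.17 ± 0.16 log2 and Ccdc80 fell by 6.69 ± 0.14 log2. The members that rose were laminin genes. Lama1, the laminin chain of the early embryo, read -3.82 in MEF, 2.02 in 178B5, 1.38 in 492B4 and -1.38 in ES, a rise of 5.52 ± 0.31 log2, and Lamc1 rose by 1.70 and 1.02 log2 (adjusted p = 0.0429). In 30 of the 35 (85.7%) ES lay nearer to MEF than both iPS lines, beside 64.1% of the genes called lower and 52.6% of all genes. With ES included 18 were lower and 0 higher, and 12 members called without ES were not called, Postn (adjusted p = 0.0829), Tnc (0.177), Dcn (0.138) and Bgn (0.178) among them.

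**Figure D3:**
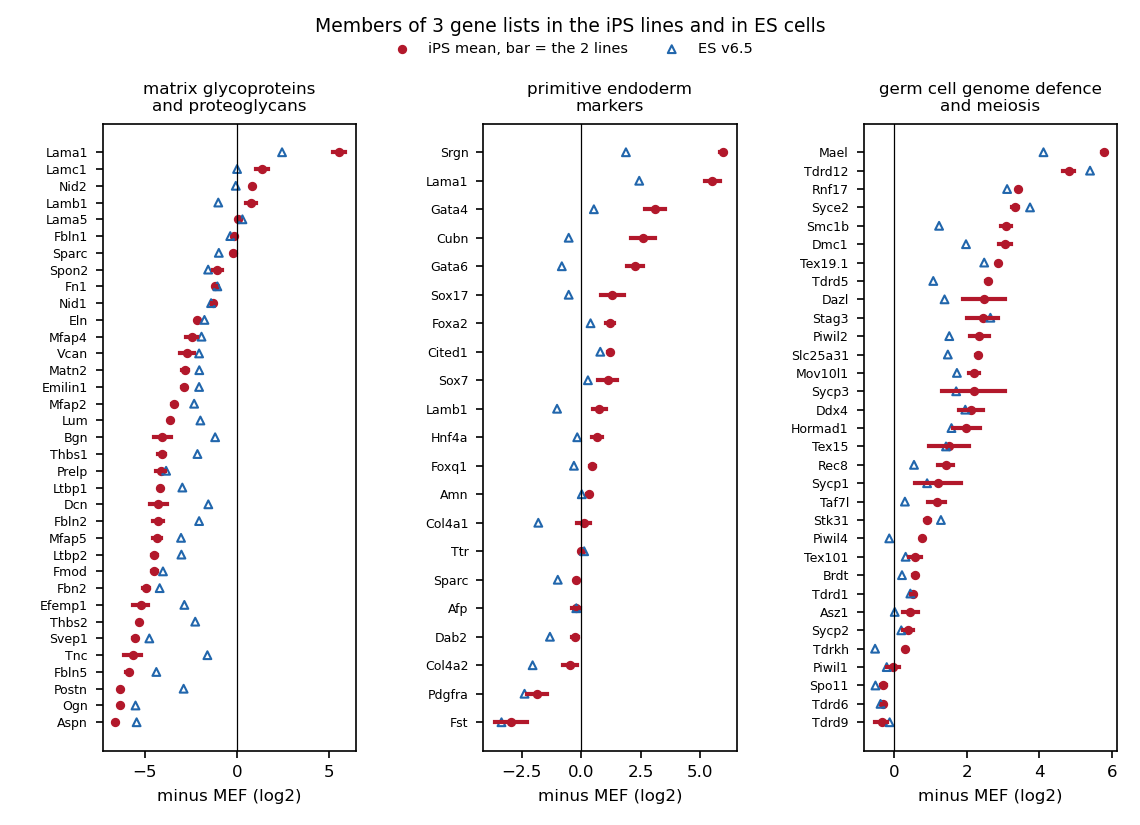
Difference from MEF (log2) for the measured members of 3 gene lists, with the mean of the 2 iPS lines as a dot, the span between the lines as a bar and ES v6.5 as an open triangle. Most matrix members that fell lie further left in the iPS lines than in ES, and Srgn, Lama1, Gata4, Cubn and Gata6 lie further right in iPS than in ES.

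Enzymes that remodel the matrix and the cell's grip on it fell as well. Of 25 matrix proteases and inhibitors 20 were lower and 0 higher, with the aggrecanase gene Adamts5 at -4.85 log2, the cathepsin gene Ctsk at -4.64 log2, Serpinf1 at -4.67 log2 and Adamts1 at -4.11 log2. Of 33 integrin and focal adhesion genes 24 were lower and 2 higher. Itgbl1 fell by 4.64 log2, the collagen receptor subunit Itga11 by 3.53 log2, Itga8 by 3.44 log2 and the adaptor gene Tgfb1i1 by 3.40 log2. The laminin receptor subunits Itga3 and Itga6 rose by 1.30 and 1.06 log2, the latter losing its call with reference centring. Caveolae, the membrane pits of mesenchymal and endothelial cells, lost 7 of 10 members. Cav1 read 3.63 in MEF, -1.19 in 178B5, -2.03 in 492B4 and 1.19 in ES and fell by 5.24 ± 0.39 log2, and Ehd2, Cavin2 and Cavin3 fell by 4.89, 4.78 and 4.62 log2.

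Contractile and stress fibre genes were lower in 20 of 31 and higher in 1. The smooth muscle actin genes Actg2 and Acta2 were at -5.79 and -4.07 log2, the calponin gene Cnn1 at -4.26 log2, and the myosin light chain gene Myl9 fell by 4.22 ± 0.14 log2. Acta2 read 2.76 in MEF, -1.54 in 178B5, -1.07 in 492B4 and 1.07 in ES. Vim, the intermediate filament of mesenchymal cells, fell by 1.04 log2 and lost its call with equal array medians, and Des rose by 1.17 log2 (adjusted p = 0.0468) and lost its call with reference centring. Srf, the factor that binds CArG boxes, stood at -0.47 and -0.59 log2 and was not called, while its coactivator gene Mrtfa fell by 1.38 log2. A CArG box lay in the 250 bases before the start of 3 of 26 contractile genes (11.5%), namely Myl9, Cnn2 and Srf itself, beside 1.45% of all genes and 2.09% of those called lower. Skeletal muscle markers held the box in 2 of 12, nucleotide synthesis genes in 2 of 22 and Wnt genes in 2 of 23. Collagen and Hox genes held it in 0 of 24 and 0 of 21. Myl9 (chr2:156775283-156775402, plus strand) and Cnn2 (chr10:79988480-79988599, plus strand), the called contractile members that hold it, are shown with the box in capitals.
Myl9: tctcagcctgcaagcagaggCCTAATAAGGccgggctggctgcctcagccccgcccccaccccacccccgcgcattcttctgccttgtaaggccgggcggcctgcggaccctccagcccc
Cnn2: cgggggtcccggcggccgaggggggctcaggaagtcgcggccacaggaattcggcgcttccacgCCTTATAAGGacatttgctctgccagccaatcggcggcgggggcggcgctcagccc

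Secreted signals of fibroblasts fell across families. Of 34 growth factors and their receptors 30 were lower and 1, the heparin-binding factor gene Mdk, was higher at 2.28 and 2.42 log2. The binding protein gene Igfbp7 was at -5.99 log2, Tgfb3 at -5.70 ± 0.25 log2, Ptn at -5.61 log2 and the activin subunit gene Inhba at -5.43 log2. In the Wnt list 16 of 35 were lower, with the R-spondins Rspo2 and Rspo3 at -5.55 and -3.83 log2, the inhibitor gene Dkk2 at -4.70 log2 and the ligand gene Wnt5a at -4.18 log2. Axin2, a target of the canonical Wnt pathway, was at 0.12 and 0.45 log2 and not called. Axon guidance genes, which also steer mesenchymal cells, were lower in 19 of 36 and higher in 1, with Nrp1 at -5.28 log2, Slit2 at -4.74 log2 and the semaphorin genes Sema3c and Sema3a at -4.65 and -4.48 log2.

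Inflammatory genes followed. Of 24 cytokine, chemokine and prostaglandin genes 17 were lower and 0 higher. The chemokine gene Ccl7 read 4.31 in MEF, -1.36 in 178B5, -1.60 in 492B4 and 1.36 in ES, and fell by 5.80 ± 0.17 log2. Osmr, the oncostatin M receptor, fell by 4.94 log2, Ptgs2, the inducible prostaglandin synthase, by 4.71 log2 and Cxcl12 by 4.32 log2. Of 14 complement genes 7 were lower, among them Masp1 at -4.84 log2. Antigen presentation and interferon genes had 11 of 37 lower and 2 higher. The DNA sensing adaptor gene Sting1 fell by 3.37 log2, Tlr4 by 3.16 log2, the interferon-gamma receptor gene Ifngr2 by 2.70 log2 and Ifit3, an interferon-induced gene, by 2.69 log2. Ifitm1 went the other way and rose by 3.71 log2. Most of the sensors and interferon factors, such as Mavs, Cgas, Irf3 and Irf7, lay between -0.78 and -0.17 log2 in the lines and were not called.

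Of the organelle and metabolic lists, lysosomal genes were lower in 12 of 31, with cathepsin genes Ctso, Ctsb and Ctsf at -2.42, -1.47 and -1.46 log2, and 0 higher. Secretory pathway genes were lower in 9 of 27, led by the collagen chaperones Fkbp14 and Fkbp7 at -3.19 and -2.81 log2 and the vesicle coat genes Copz2 and Sec24d at -2.43 and -2.39 log2, while the general chaperones Hspa5 and Hsp90b1 lay between -0.42 and -0.08 log2 and were not called. Retinoid and detoxification genes had 12 of 26 lower and 2 higher. The dioxin-responsive enzyme gene Cyp1b1 was at -5.39 log2, Dhrs3, which reduces retinal, at -3.81 log2 and the retinoic acid binder gene Crabp2 at -3.59 log2, and Gsta4 rose by 3.08 log2. Cholesterol synthesis had 1 of 17 higher (Dhcr7 at 1.68 log2) and 1 lower (Hsd17b7 at -1.38 log2).

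**Figure D4:**
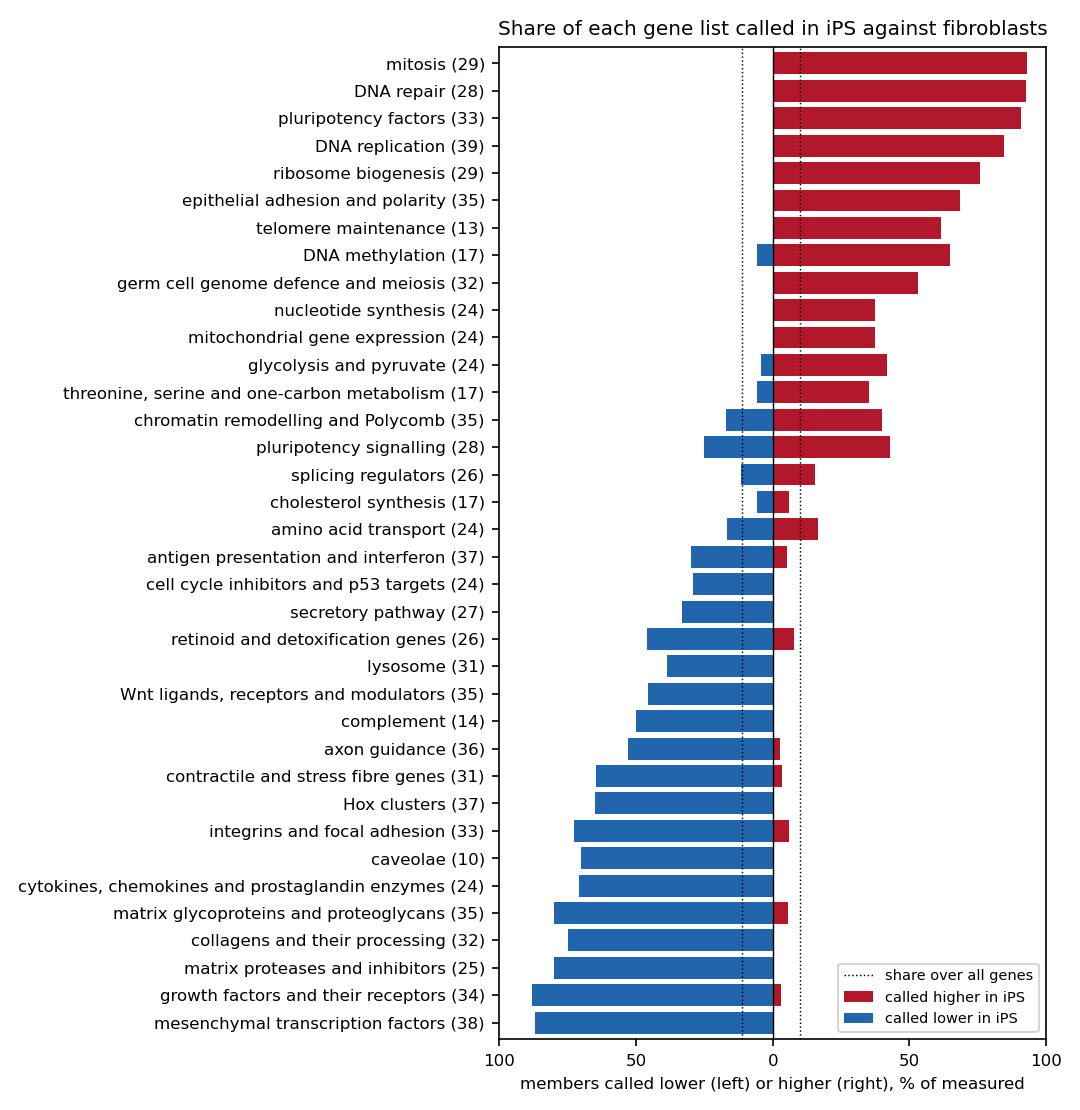
Percent of measured members of each of 36 function lists called lower (blue, to the left) or higher (red, to the right) in iPS against MEF, with the number measured in brackets and dotted lines at the share over all genes (11.2% and 9.94%). Mitosis, DNA repair and pluripotency factors are at the top, and growth factors and mesenchymal transcription factors are at the bottom.

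Among 296 probe-set genes named for a microRNA, 3 were called higher and 6 lower, below the share of all genes, with a median of -0.14 log2. These genes were picked after their values were seen. They read the transcript over the microRNA gene and do not tell which mature strand was present. Mir18, of the growth-promoting cluster with Mir17, rose by 1.67 and 1.56 log2 (adjusted p = 0.00519), Mir6516 by 1.72 and 1.97 log2 and Mir15a by 0.86 and 1.44 log2. Mir17 itself was at -0.25 and -0.37 log2 and not called. The smooth muscle microRNA genes Mir145a and Mir143 fell by 1.92 and 1.64 log2, Mir568 by 1.36 log2, Mir218-1 by 1.21 log2, Mir199a-1 by 1.20 log2 and Mirlet7e by 1.04 ± 0.14 log2. Let-7 microRNAs promote differentiation and are blocked in their maturation by the Lin28 proteins, whose gene Lin28a rose by 4.12 and 3.72 log2. RefSeq on build GRCm38.p6 gave 13 mature sequences for 7 of the genes, with 13 distinct seeds, so no seed was shared. The mature strands of the genes best known in growth or mesenchyme are printed 5′ to 3′ with the seed, bases 2 to 8, in capitals.
mmu-miR-18a-5p: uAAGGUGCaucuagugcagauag
mmu-miR-15a-5p: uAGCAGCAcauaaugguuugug
mmu-miR-199a-5p: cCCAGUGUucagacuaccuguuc
mmu-miR-199a-3p: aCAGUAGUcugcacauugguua
mmu-miR-218-5p: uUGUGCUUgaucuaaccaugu
mmu-let-7e-5p: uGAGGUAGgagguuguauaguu

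The last comparison asked which of these changes are missed when ES stands beside the iPS lines as another pluripotent line. In that fit 3512 genes were called (17.6%). The calls in both fits numbered 3388, which is 80.4% of the calls without ES and 96.5% of those with ES. Without ES, 828 genes were called that were not called with it, 473 higher and 355 lower in iPS, and 124 genes were called only in the fit with ES. Since the fits share the MEF and iPS arrays, they are not separate evidence. Of the 828, 210 had ES at least 1 log2 from MEF in the same direction, as for Prg4 (ES at -3.62 log2), Postn (-2.90 log2), Prrx1 (-2.75 log2) and Igfbp7 (-2.82 log2). In 114 ES lay less than 1 log2 from MEF in the iPS direction and both iPS lines lay at least 1 log2 from ES, 81 of them higher and 33 lower in iPS, and in 35 ES was on the opposite side of MEF. The remaining 504 fit neither description. Near the limit, 23 of the 114 had a smaller gap to ES of 1 to 1.1 log2, and 18 genes with a gap of 0.9 to 1 log2 lay just outside.

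Among the 81 genes high in iPS and not in ES, the largest gaps included regulators and surface proteins of extraembryonic endoderm. Gata4 read -1.62 in MEF, 1.92 in 178B5, 1.09 in 492B4 and -1.09 in ES, a rise over MEF of 3.12 ± 0.39 log2 (adjusted p = 0.00981). Gata6 rose by 2.58 and 1.92 log2 and stood at -0.82 log2 in ES, and Cubn, the endocytic receptor cubilin, rose by 2.08 and 3.12 log2 with ES at -0.53 log2. By the rule that picked these genes, ES lay less than 1 log2 above MEF and both iPS arrays at least 1 log2 above ES. Tns4, a tensin of focal adhesions, rose by 3.69 log2 (ES at 0.59 log2), the RNA export gene Nxf3 by 3.35 log2 (0.28 log2), the phosphate transporter gene Slc34a2 by 2.39 log2 (-0.10 log2), Pla2g12b by 2.46 log2 (-0.01 log2) and the heparan sulfate enzyme gene Hs3st1 by 1.94 log2 (-0.52 log2). The aminopeptidase gene Enpep rose by 1.23 log2 with ES at -1.22 log2, and 4933427D06Rik rose by 2.64 log2 with ES at 0.00 log2.

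Primitive endoderm is the embryonic lineage that forms the yolk sac and lays down a laminin-rich membrane. Of its 21 markers 7 were higher in iPS and 2 lower, with a median of 0.88 log2 in 178B5, 0.45 log2 in 492B4 and -0.31 log2 in ES. In 18 of the 21 ES lay below both iPS lines, beside 6055 of all 19938 genes and 1044 of the 1981 called higher. Srgn, a proteoglycan core protein, read -3.87 in MEF, 2.19 in 178B5, 1.99 in 492B4 and -1.99 in ES and rose by 5.96 ± 0.16 log2, and Foxa2 and Cited1 rose by 1.20 and 1.19 log2. Sox17 (1.78 and 0.82 log2), Sox7 (1.52 and 0.72 log2) and Hnf4a (0.88 and 0.45 log2) were above MEF in both lines and not called, with adjusted p of 0.0954, 0.092 and 0.101. Ttr, Afp and Amn, markers of later endoderm, lay between -0.41 and 0.40 log2. Pdgfra and Fst, which fibroblasts also express, fell by 1.87 and 2.98 log2. With ES included 1 marker was called higher.

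Among the 33 genes low in iPS and not in ES, Mgp, which keeps soft tissue from calcifying, read 2.82 in MEF, -2.11 in each iPS line and 2.11 in ES, a fall of 4.93 ± 0.14 log2 (adjusted p = 0.00187 without ES, 0.259 with it). Mmp3, a secreted protease, read 0.88 in MEF, -0.95 in 178B5, -0.88 in 492B4 and 3.63 in ES, so ES stood highest. Agtr2, an angiotensin receptor gene, fell by 2.82 log2 (ES at 0.71 log2), Serpina3n by 2.87 log2 (0.49 log2), Gpnmb by 3.15 log2 (-0.43 log2), the growth factor gene Pdgfc by 3.53 log2 (-0.75 log2) and Gldn by 2.18 log2 (0.30 log2). Mid1, an X-linked ubiquitin ligase gene, fell by 2.37 log2 and was 1.23 log2 above MEF in ES. The immediate early genes Egr1, Egr2, Jun and Nr4a2, picked after their values were seen, also belong here, with falls of 1.70, 1.88, 1.54 and 2.28 log2 in iPS beside 0.03, -0.24, -0.25 and -0.81 log2 in ES. With iPS against ES as the contrast, limma called 0 genes, 3079 had an unadjusted p under 0.05, and the lowest adjusted p was 0.0529.

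**Figure D5:**
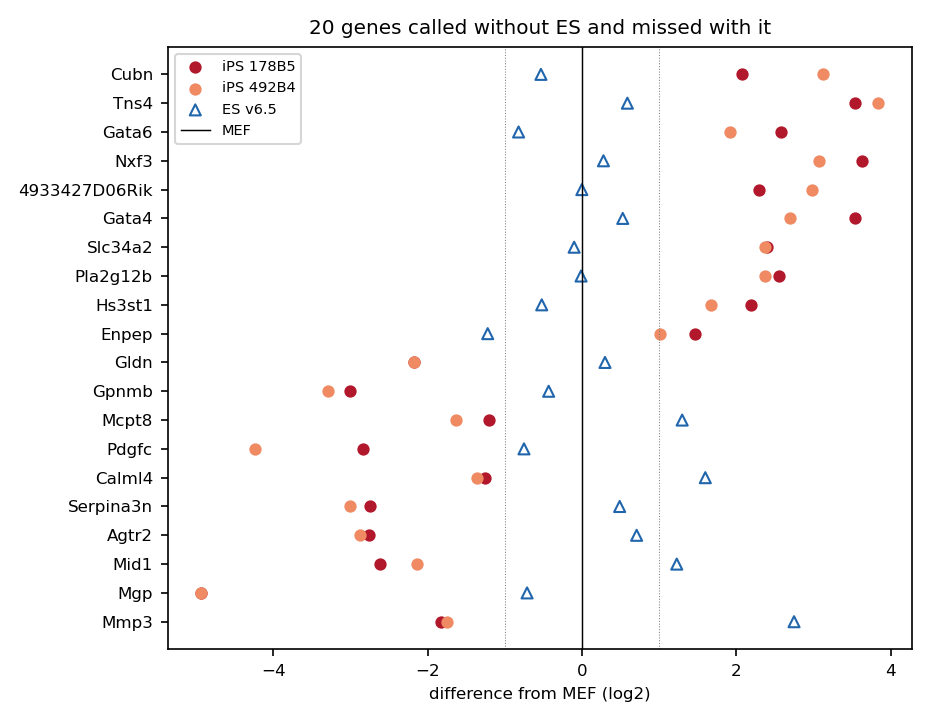
Difference from MEF (log2, MEF at 0) in iPS 178B5, iPS 492B4 and ES v6.5 for the 20 genes with the largest gap between iPS and ES among those called without ES and missed with it, with dotted lines at 1 log2. The points of the 2 iPS lines lie beyond the dotted lines, at -4.93 log2 for Mgp and up to 3.84 log2 for Tns4, and those of ES lie between the dotted lines except for Mmp3 (2.75 log2), Calml4 (1.60 log2), Mcpt8 (1.30 log2), Mid1 (1.23 log2) and Enpep (-1.22 log2), where ES lies past the opposite line.

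Among called genes, the gap between the lines was largest for Sulf1, which trims heparan sulfate (-2.79 log2 in 178B5 and -4.59 log2 in 492B4), Car2 (3.95 and 2.21 log2), Trh (5.25 and 3.75 log2), Zdbf2 (3.42 and 2.00 log2), Pdgfc (-2.84 and -4.23 log2) and Fst (-2.30 and -3.65 log2). These 6 kept their direction in both lines. Their adjusted p, from 0.0142 for Trh to 0.0482 for Car2, reflects that gap. The difference between the lines has no replicate and was not tested.

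Markers of other cells were read to check what else the samples could hold. Of 15 markers of fibroblast identity 14 were lower in iPS, with a median of -3.81 log2 in 178B5, -4.03 log2 in 492B4 and -2.39 log2 in ES, and in 12 of the 15 (80%) ES lay nearer to MEF than both iPS lines, beside 64.1% of the genes called lower. Thy1, a fibroblast surface marker, read 2.73 in MEF, -0.93 in 178B5, -1.02 in 492B4 and 0.93 in ES. The part of fibroblast RNA in the gap between iPS and ES was not tested. Over all genes, 9.94% were called higher and 11.2% lower, and the macrophage and endothelial counts lay near those shares. Macrophage markers had 2 higher (Laptm5 and Cd68) and 2 lower (Lyz2 and Cd53) of 18. Endothelial markers had 2 higher (Pecam1 and Egfl7) and 2 lower (Erg and Emcn) of 16, and skeletal muscle markers 3 higher and 2 lower of 15. Keratinocyte markers had 2 of 13 higher (Sfn and Krt17), neuron and glia markers 2 higher and 1 lower of 13, and erythroid markers 0 of 6 called by limma (2 at an unadjusted p under 0.05). Trophoblast markers had 4 higher and 3 lower of 14, mesoderm and neural markers 1 higher and 4 lower of 19, and 2-cell-like markers 1 of 8 higher. Pecam1 and Tfap2c are also expressed by pluripotent cells. Lineage factors moved in both directions or were not called. Neurod1 of neurons rose by 4.17 log2, and the trophoblast genes Tfap2c, Ascl2, Hand1 and Eomes rose by 3.37, 2.23, 1.26 and 1.16 log2, while Gata2, Gata3 and Tfap2a were called lower at -2.03, -2.00 and -1.85 log2. Cd14, Ptprc, Kdr, Trp63, Myod1 and Cdx2 were not called. Of 12 reference genes Tbp rose by 1.04 log2, a call lost with reference centring, and B2m and Gusb fell by 1.57 and 1.49 log2, while Actb stood at -0.14 and -0.22 log2. The Y-linked Zfy1 rose by 3.08 log2 and Kdm5d fell by 1.20 log2, and Xist was within 0.10 log2 of MEF in both lines.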

How the data were processed

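RNA of 4 cell cultures was read on microarrays, 1 array each. The deposited table holds log2 values made by the authors with GCRMA, per the submitters' processing notes; its version and the log base are not given in the sources used here. Each of the 28853 probe sets has a median of 0 across the 4 arrays (tolerance 1e-06), so differences between arrays are kept and levels are not. Probe sets with exactly 1 symbol (21789) were averaged into 19938 genes, 1621 with several symbols and 5443 with none were left out, and no filter on low values was possible. The number of arrays limits the precision.

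Differences from MEF were tested with limma 3.58.1 (lmFit, eBayes, Benjamini-Hochberg adjustment over 19938 genes) in R 4.3.3, with 1 residual degree of freedom, and with 2 when ES was added to the pluripotent lines. The fit was also run on simulated data in which each gene had the same spread on every array, MEF included. That run cannot test the assumption made here about the spread of MEF. A call needed an adjusted p under 0.05 and 1 log2. Promoters and microRNAs came from RefSeq tables of GRCm38.p6 and figures from matplotlib 3.10.9.

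The comparison, its 50 gene lists and its rules were chosen with earlier results of these data known. The text names the 10 largest rises and falls, up to 4 members of each list in each direction and the 6 largest gaps between lines. It also names the 10 largest gaps to ES in each direction among the 114 genes where ES differed. Other genes were chosen after their values were seen. Alternatives were centring on reference genes, equal array medians, single probe sets, robust moderation, limma's treat, both lines past 1 log2, an adjusted p under 0.01, a 3-group fit, and each iPS line left out.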

Additional observations from a re-analysis of the deposited data

Results flagged for a closer look

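For 5 genes called in the iPS lines, both lines and ES lay at least 1 log2 from MEF on opposite sides, and limma's test of iPS against ES, which called 0 genes (3079 at an unadjusted p under 0.05), gave these 5 an adjusted p between 0.0529 for Mmp3 and 0.0975 for Enpep. Mmp3 was -1.83 log2 from MEF in 178B5 and -1.75 log2 in 492B4 and 2.75 log2 in ES. Calml4, a calmodulin-like gene, was at -1.25 and -1.36 log2 in the lines and 1.60 log2 in ES. Mcpt8, a mast cell protease gene, was at -1.20 and -1.63 log2 and 1.30 log2 in ES. Mid1 was at -2.62 and -2.13 log2 and 1.23 log2 in ES, and Enpep was at 1.46 and 1.01 log2 and -1.22 log2 in ES.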

How the results depend on the processing

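The 4216 calls stayed within 1.5 times under both centrings, single probe sets (4010), robust moderation (4206) and calls asked of both lines. The 3-group fit gives the lone ES array its own mean. It therefore had to return the same 4216 calls and is no check on them. Limma's treat against 1 log2 left 1494 calls, 607 higher and 887 lower. At an adjusted p under 0.01 there were 2718, of which 1203 were higher, and 1506 genes were missed with ES included, beside 828. The other settings gave 759 to 959 missed genes. By value alone, 4657 genes passed 1 log2 without 178B5 and 4210 without 492B4. Reference centring turned the medians of amino acid transporters (-0.03 log2), endothelial (-0.02 log2), keratinocyte (-0.14 log2) and sex-linked genes (-0.11 log2) below 0. Without either iPS line the amino acid transport median ranged from -0.08 to 0.16 log2. Of 248 named genes tested, 6 lost their call under reference centring, 4 under equal medians and 2 under robust moderation. At an adjusted p under 0.01, 43 lost it, and under treat 65 did. The called genes among the 248 kept their direction with either line left out. Klf4 and Xist, which were not called, differed in sign between the lines. The causes were not tested. No paired analysis was possible because the labels give no replicate numbers shared between groups. With 1 MEF array, its own spread is unknown.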

Other observations

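A few genes not described above were called without ES and not with it. Txnip, which binds thioredoxin and limits glucose uptake, rose by 2.34 log2 in 178B5 and 2.83 log2 in 492B4 and stood at 0.73 log2 in ES. Ldhb, a lactate dehydrogenase subunit, rose by 1.98 and 2.09 log2 (0.80 log2 in ES), the growth factor gene Bmp7 by 2.20 and 2.79 log2 (0.58 log2) and Stra6, the membrane receptor for retinol transport, by 2.14 and 1.43 log2 (-0.18 log2). These genes were chosen after their values were seen.

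The median number of CpG dinucleotides in the 250 bases before the start was 15 for genes called higher, 14 for genes called lower, 10 for genes not called and 11 for all genes with a promoter entry. A TATA box (TATAAA on either strand) lay in 7.97% of the promoters of genes called higher, 11.2% of those called lower and 12.5% of all. Mir302a, Mir302b, Mir302c and Mir302d, of a microRNA cluster known from pluripotent cells, stood at -0.02, 0.05, -0.07 and 0.10 log2 and were not called by limma.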
